A study of Homo sapiens with 17 samples.

Results

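Selenoproteins are the proteins that hold selenocysteine, the amino acid encoded by an in-frame UGA codon, and 10 of them were looked up by gene symbol in a table of 9699 genes measured by RNA-Seq and Ribo-Seq (ribosome profiling, the sequencing of mRNA fragments protected by ribosomes). Rows were found for 4 of the 10: GPX1 (ENST00000419783), GPX4 (ENST00000354171), SELS (ENST00000398226) and SEPN1 (ENST00000361547). The symbols SEPP1, SEPW1, SELT, SELM, SELK and SEP15, and their other names in RefSeq, matched no row and were not analysed here. All 4 genes passed the filter on low values described below, as did 7263 of the 9699 genes. The rule uses names alone and no measured value.

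The cells were BJ fibroblasts, a line of human primary fibroblasts immortalized with hTERT (the catalytic subunit of telomerase), in 17 libraries (9 RNA-Seq, 8 Ribo-Seq). Proliferating cells were grown in medium with serum, and quiescent cells were deprived of serum. Pre-senescent and senescent cells carried a RASG12V that responds to 4-OHT-Tamoxifen and had been kept in that drug for 5 and 14 days, respectively. Transformed cells carried hTERT, a knockdown of p16INK4A among others, SV40 small T and a retroviral RASG12V. The table gave 12 columns, 6 for each assay, and thus 1 value per condition and assay: for proliferating cells of the first sequencing run, for quiescent cells in both assays and for pre-senescent cells in RNA-Seq, the authors had combined 2 libraries into 1 value. No spread between replicates could be computed, and no difference below carries a test. The proliferating cells were measured in both sequencing runs, and the difference between these 2 values of a gene is given as the yardstick that the table allows, although it holds the difference between runs as well as that between cultures. It is 1 difference per gene and does not measure the spread of that gene, so a small one may be an accident. Quiescent and pre-senescent cells were set against the proliferating cells of run 1, and senescent and transformed cells against those of run 2, so each pair of comparisons shares its control. The table holds no counts, so it does not show the depth behind a value, and library totals were not used here.

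In most genes UGA ends translation. In selenoprotein mRNAs a hairpin in the 3′ untranslated region, the SECIS element, binds SECISBP2 (SBP2), which brings the elongation factor EEFSEC with the selenocysteine tRNA to the ribosome, so that UGA is read as selenocysteine. Decoding competes with termination and depends on selenium, which cultured cells take largely from serum. When selenium is short, selenoproteins lose ground in a known order, with GPX1 among the more sensitive and GPX4 among the more protected. The place of the UGA also differs: it lies in the early part of the coding sequence of the glutathione peroxidases, in the last codons of SELS and in the later part of SEPN1.

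Several facts of the series touch these values. The Ribo-Seq libraries titled S and C3 carry each other's condition in their sample records. The titles were followed here: MKI67, a proliferation marker, was at 1 FPKM, the smallest value the table holds, in both columns titled S, and at 44.0 (RNA-Seq) and 43.0 FPKM (Ribo-Seq) in the columns titled C3. FPKM is fragments per kilobase of transcript, scaled to the reads of the library, and so a level per length. CDKN2A, the gene of p16INK4A, was at 12.6 FPKM (RNA-Seq) in the transformed column against 6.75 in the run 2 control, and at 5.51 against 8.92 FPKM by Ribo-Seq. That RNA change, 0.91 on the log2 scale, goes against a knockdown. Between the proliferating cultures, however, CDKN2A RNA differed by -1.35 (run 2 against run 1), which is more. The direction in RNA thus holds against the run 2 control alone, and the values leave the knockdown unchecked. The row does not separate p16INK4A from the other product of that gene. The cells are therefore called "labelled transformed" throughout, and every direction drawn from them rests on that label. HRAS was at 311.5 FPKM in them and between 1254 and 2415 FPKM in the other columns, controls included, and the drug acts on the protein, so RNA did not check the induction. All 10 fibroblast markers had rows, with summed RNA-Seq levels of 5498 to 8207 FPKM. They moved with the conditions: 8 of 10 were lower by 1.5-fold in RNA in senescence (a median change of -2.02), beside 19.8% of all genes. Between the proliferating cultures 6 of 10 were higher by 1.5-fold in run 2 than in run 1 (a median of 1.40). There 24.5% of all genes passed in either direction. EPCAM, CDH1, PTPRC and the 3 endothelial markers (PECAM1, CDH5, VWF) matched no row, whereas KRT8 and KRT18 summed to 103 to 273 FPKM and CD14 and CD68 to 39.3 to 133 FPKM; the part of any of these markers in the results was not tested.

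The results rest on RNA level and translation. The RNA-Seq level counts reads over the whole transcript and the Ribo-Seq level reads over the coding sequence, and translation efficiency (TE) is the log2 ratio of Ribo-Seq to RNA-Seq FPKM. A change of at least 1.5-fold, 0.58 on the log2 scale, in either direction is called a difference.

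The 4 selenoproteins lay in different places of the transcriptome. In proliferating cells of run 1, the RNA-Seq level of GPX1 exceeded that of 97.2% of the 7263 genes, GPX4 exceeded 92.7%, SEPN1 76.5% and SELS 53.0%. Their translation efficiencies did not follow this order. SELS had a TE of 3.50 in these cells, above 99.6% of genes, whereas GPX1 (-0.45), GPX4 (-0.58) and SEPN1 (-0.74) lay below the median of all genes (0.50), at percentiles 17.1, 14.4 and 11.5. In run 2 the TE of GPX1, GPX4 and SEPN1 was -0.26, -0.58 and -0.57 and that of SELS 2.48. SELS thus had by far the highest ratio of Ribo-Seq to RNA-Seq level of the 4 in either proliferating culture, and the order of the other 3 changed with the run. Both levels are per length, over the coding sequence and the whole transcript, so the ratio is not a count of footprints per transcript.

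**Figure D1:**
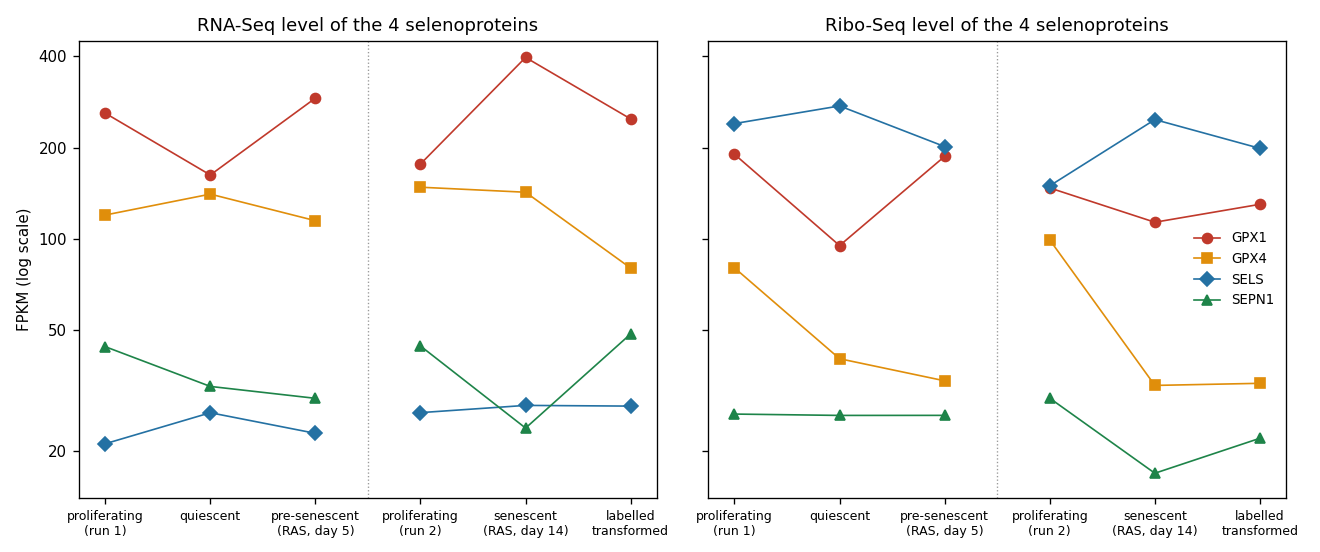
RNA-Seq level (left) and Ribo-Seq level (right) of GPX1, GPX4, SELS and SEPN1, in FPKM on a log axis, for each of the 6 conditions; a point is the table's value for that condition, lines join conditions of a sequencing run, and the dotted line parts the runs. GPX4 went from 99.2 FPKM of Ribo-Seq in proliferating cells of run 2 to 32.9 in senescent cells while its RNA-Seq level stayed at 148 and 142.5.

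GPX4 and GPX1, the glutathione peroxidases, reduce peroxides at the expense of glutathione. GPX4 reduces lipid hydroperoxides within membranes and is known as the guard against ferroptosis. Its RNA-Seq level was 119.9 FPKM in proliferating cells of run 1, 140.5 in quiescent, 115 in pre-senescent, 148 in proliferating cells of run 2, 142.5 in senescent and 80.2 in cells labelled transformed. Ribo-Seq gave 80.3, 40.3, 34.1, 99.2, 32.9 and 33.5 FPKM in the same order. The RNA values were close to each other apart from the lowest, in cells labelled transformed, and the Ribo-Seq values fell into a high pair, the proliferating cultures, and 4 lower ones. The TE of GPX4 was -0.58 in each of the proliferating cultures, which differed by 0.00 on the log2 scale, and -1.80 in quiescent, -1.75 in pre-senescent, -2.11 in senescent and -1.26 in cells labelled transformed. Every one of these 4 values was lower than both controls.

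Set against its control, the TE of GPX4 was lower by 1.22 on the log2 scale in quiescence (a ratio of 0.43), below all but 1.45% of the genes. In pre-senescence it was lower by 1.17 (a ratio of 0.44), at percentile 4.63. In senescence it was lower by 1.54 (a ratio of 0.35), at percentile 1.00. In cells labelled transformed it was lower by 0.68 (a ratio of 0.62), at percentile 5.77, and there the RNA-Seq level was lower as well, by 0.88 (by 0.58 against the control of run 1, just inside the limit). The Ribo-Seq level of GPX4 was therefore lower in all conditions, to 0.50 of control in quiescence, 0.42 in pre-senescence, 0.33 in senescence and 0.34 in cells labelled transformed. In the first 3 the RNA-Seq change was between -0.06 and 0.23. The last 2 of the 4 TE values rest on the sample titles, which were followed for the MKI67 values given above. With the Ribo-Seq libraries S and C3 exchanged, as their condition fields have them, GPX4's TE change was 1.65 in senescence and 0.91 in cells labelled transformed. That exchange put 66.7% and 48.9% of all genes past 1.5-fold in TE, where the titles put 30.5% and 11.9%.

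GPX1, the abundant cytosolic enzyme that removes hydrogen peroxide, behaved differently. Its RNA-Seq level was 259.6 FPKM in proliferating cells of run 1, 162 in quiescent, 291 in pre-senescent, 177 in proliferating cells of run 2, 396 in senescent and 248 in cells labelled transformed. Ribo-Seq gave 190.0, 95.1, 187, 147, 113.5 and 130.0 FPKM. Quiescent cells had the lowest value in both assays, and senescent cells had the highest RNA-Seq level and the second lowest Ribo-Seq level. TE was -0.45 and -0.26 in the proliferating cultures of run 1 and run 2, -0.77 in quiescent, -0.64 in pre-senescent, -1.80 in senescent and -0.93 in cells labelled transformed.

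In quiescence the RNA-Seq level of GPX1 was lower by 0.68 (a ratio of 0.63, percentile 6.98), its Ribo-Seq level by 1.00 and its TE by 0.32. Its RNA difference between runs was 0.56 on the same scale. That leaves the quiescent RNA change little larger than the yardstick, and against the proliferating cells of run 2 it was -0.12. In pre-senescence GPX1 was close to its control in RNA (0.16), Ribo-Seq (-0.02) and TE (-0.19). In senescence its RNA-Seq level was 2.24-fold that of the control (1.17 on the log2 scale, percentile 95.3), yet its Ribo-Seq level was 0.77 of control. TE was lower by 1.54, at percentile 0.99, and the change was larger than the run difference in TE, 0.19. In cells labelled transformed RNA was 1.41-fold that of the control, below the 1.5-fold limit, and TE was lower by 0.67, at percentile 6.00. Against the proliferating cells of run 1, the senescent RNA change was 0.61 and the TE change -1.35, and the TE change in cells labelled transformed was -0.48, no longer past the limit. With S and C3 exchanged, the senescent TE change of GPX1 was -0.79 and that of cells labelled transformed -0.30.

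**Figure D2:**
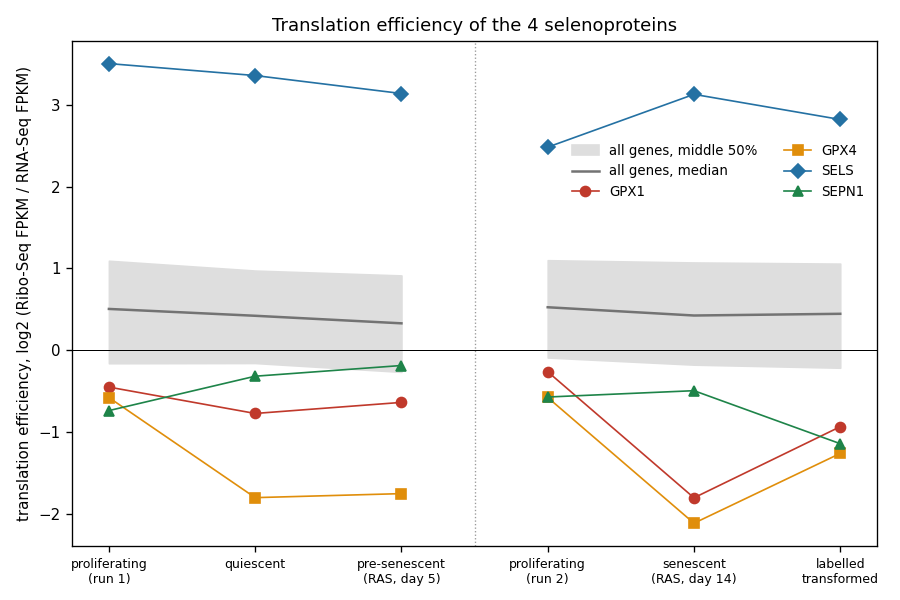
Translation efficiency of GPX1, GPX4, SELS and SEPN1 in each condition, as log2 of Ribo-Seq over RNA-Seq FPKM; the grey line is the median of the 7263 genes and the grey band their middle 50%. SELS stayed above 2.4 in every condition, while GPX1 and GPX4 were lowest in senescent cells at -1.80 and -2.11.

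SELS and SEPN1 are proteins of the endoplasmic reticulum (ER) membrane. SELS (selenoprotein S, also VIMP) takes part in ER-associated degradation, linking the Derlins to the ATPase VCP. Its RNA-Seq level hardly varied: 21.2 FPKM in proliferating cells of run 1, 26.8 in quiescent, 22.9 in pre-senescent, 26.8 in proliferating cells of run 2, 28.3 in senescent and 28.2 in cells labelled transformed. The highest was 1.34-fold the lowest. Ribo-Seq gave 239.8, 274, 201, 149.6, 247 and 199 FPKM, with the lowest value in the proliferating cells of run 2. TE was 3.50, 3.36, 3.14, 2.48, 3.13 and 2.82 in that order and never left the top 3% of genes, the lowest percentile being 97.3.

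The senescent change in the TE of SELS was 0.65 (a ratio of 1.56), past the limit and at percentile 90.4. It was smaller than the difference between the proliferating cultures, which was -1.02 in TE, and against the control of run 1 it changed sign, to -0.38, as did that of cells labelled transformed, to -0.68. With S and C3 exchanged it was -0.80. The other changes in TE were -0.15 in quiescence, -0.37 in pre-senescence and 0.34 in cells labelled transformed; against the control of run 2 the first 2 were 0.87 and 0.66. None of the RNA-Seq changes of SELS exceeded 0.34, its run difference. The senescent Ribo-Seq change, 0.72, was just larger than the Ribo-Seq difference between runs, 0.68 in the other direction. SELS held a high TE in all conditions, and no condition changed its RNA or TE by more than the run difference.

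SEPN1 (selenoprotein N) is tied to calcium handling in the ER, and its loss causes a congenital muscle disease. Its RNA-Seq level was 44.2 FPKM in proliferating cells of run 1, 32.7 in quiescent, 29.9 in pre-senescent, 44.4 in proliferating cells of run 2, 23.8 in senescent and 48.7 in cells labelled transformed. The proliferating cultures differed by 0.01 on the log2 scale, and the 3 arrested or pre-arrest states lay below both. Ribo-Seq gave 26.5, 26.2, 26.2, 29.9, 16.9 and 22.1 FPKM: quiescent and pre-senescent cells matched their control, whereas senescent cells had the lowest value.

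The RNA change of SEPN1 was -0.43 in quiescence, -0.57 in pre-senescence, -0.90 in senescence (a ratio of 0.54, percentile 12.7) and 0.13 in cells labelled transformed. The senescent change alone passed 1.5-fold. TE moved the other way in the run 1 comparisons, by 0.42 in quiescence and 0.55 in pre-senescence, with a Ribo-Seq change of -0.01 in each. In senescence TE was near its control (0.077), so that the Ribo-Seq change, -0.82, was close to that of RNA. In cells labelled transformed TE was lower by 0.57, just inside the limit, at percentile 9.20. The run difference in TE was 0.17. With S and C3 exchanged, SEPN1's TE change was 1.72 in senescence and 0.25 in cells labelled transformed.

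Counted together, 1 of the 4 passed 1.5-fold in RNA in quiescence (GPX1, lower), where 18.5% of all genes did. None did in pre-senescence, where 11.4% of all genes did, and 2 did in senescence (GPX1 higher, SEPN1 lower) against 39.6%. In cells labelled transformed 1 did (GPX4, lower) against 21.3%. For TE the counts were 1 of 4 in quiescence (GPX4, lower) against 20.3% of all genes and 1 of 4 in pre-senescence (GPX4, lower) against 33%. In senescence 3 of 4 passed (GPX1 and GPX4 lower, SELS higher) against 30.5%, and in cells labelled transformed 2 of 4 (GPX1 and GPX4, lower) against 11.9%. Between the proliferating cultures, no member differed by 1.5-fold in RNA, where 24.5% of genes did, and 1 did in TE (SELS), where 23% did. The RNA counts were thus near or below the background. At 2-fold, RNA gave 0 members in quiescence, 1 in senescence and 0 in cells labelled transformed, where 5.8%, 18.4% and 7.74% of all genes passed, and TE gave 0 in the last, where 1.89% passed. Under a limit scaled to the spread of genes of like level, RNA gave 0 in each of these comparisons (7.71%, 6.93% and 5.92% of all genes). Under it TE gave 1 in cells labelled transformed (GPX1, against 7.15%) and 0 between the proliferating cultures (7.21%). With 4 genes, the TE counts in senescence and in cells labelled transformed rest on the peroxidases, and SELS adds to the first.

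The median TE change of the 4 was -0.23 in quiescence, -0.28 in pre-senescence, -0.73 in senescence and -0.62 in cells labelled transformed, beside -0.07, -0.17, -0.07 and -0.08 for all genes. The pre-senescent median of all genes was the only one in TE or RNA more than 0.1 from 0. Relative to it, the TE of GPX4 in pre-senescence was lower by 1.00, and the change was that of the median for GPX1, at -0.01. That of SELS was -0.19 and that of SEPN1 0.73, now past 1.5-fold. The Ribo-Seq medians of all genes were -0.12 in quiescence and -0.14 in pre-senescence. Relative to these, the Ribo-Seq change of SEPN1 was 0.11 and 0.13 and that of GPX1 in pre-senescence 0.12, which turned their signs.

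A further list of 15 human selenoprotein genes had 7 rows, of which 6 passed the filter. TXNRD1 and TXNRD2 are the cytosolic and mitochondrial thioredoxin reductases, with selenocysteine in the last codons. C11orf31 (selenoprotein H) is a nucleolar redox protein, SEPX1 (MSRB1) repairs oxidized methionine, SEPHS2 makes the selenium donor for selenocysteine itself, and EPT1 (selenoprotein I) is an enzyme of phospholipid synthesis. The seventh, DIO2, a thyroid hormone deiodinase, did not pass: its RNA-Seq level was between 1 and 9.28 FPKM, the highest in proliferating cells of run 2.

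In senescence the lowest TE change was that of C11orf31, at -2.11 (percentile 0.22): its RNA-Seq level was 24.6 FPKM in the control and 33.5 in senescent cells, and its Ribo-Seq level 81.7 and 25.7 FPKM. SEPHS2 had -1.21, with RNA at 25.2 and 33.8 FPKM and Ribo-Seq at 10.4 and 6.05 FPKM. SEPX1 had -1.06, with RNA at 18.6 and 11.3 and Ribo-Seq at 18.4 and 5.36 FPKM. EPT1 had 0.75, with Ribo-Seq at 24.4 and 54.2 FPKM. TXNRD1 had -0.11 and TXNRD2 -0.28. TXNRD1 RNA was 2.13-fold that of the control, a size close to that of GPX1, and its Ribo-Seq level was 1.97-fold, so these abundant selenoprotein mRNAs parted in TE.

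In quiescence 3 of these 6 were lower in TE by 1.5-fold (SEPHS2 by 0.97, EPT1 by 0.65, SEPX1 by 0.61) and none higher. All 6 changes lay between -0.97 and -0.43. In pre-senescence 3 were lower (SEPX1 by 1.03, TXNRD1 by 0.86, SEPHS2 by 0.85), none higher, and all 6 lay between -1.03 and -0.30. In cells labelled transformed 2 were lower (C11orf31 by 1.13, SEPX1 by 0.99). The background for lower TE was 12% of genes in quiescence, 22% in pre-senescence, 18.7% in senescence and 8.67% in cells labelled transformed. The yardstick was wide for some: the proliferating cultures differed in TE by 0.65 for C11orf31, -0.74 for SEPX1 and -0.52 for SEPHS2, and SEPX1 RNA was 3.58-fold higher in run 2.

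Over the 10 selenoproteins that passed the filter, 4 of 10 were lower in TE by 1.5-fold in quiescence, 4 of 10 in pre-senescence, 5 of 10 in senescence and 4 of 10 in cells labelled transformed. The shares of all genes lower were 12%, 22%, 18.7% and 8.67% in the same order. The numbers higher were 0, 0, 2 and 0, where 8.33%, 11%, 11.8% and 3.22% of all genes were higher. The median changes were -0.48, -0.52, -0.67 and -0.49. RNA medians of the same genes were 0.03, 0.12, 0.41 and 0.20.

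**Figure D3:**
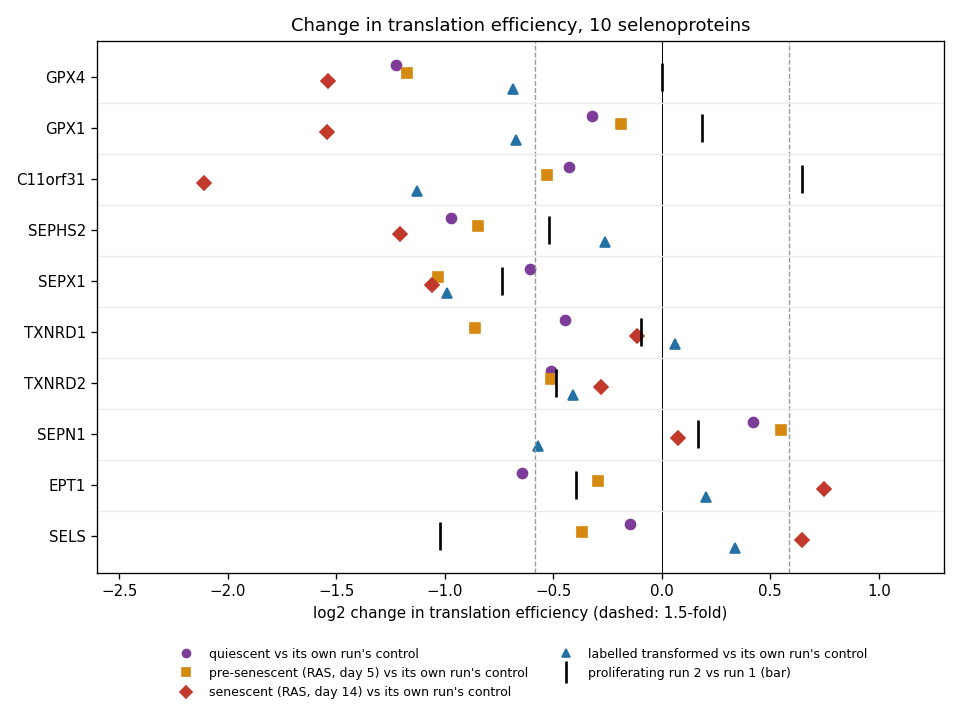
Log2 change in translation efficiency of the 10 selenoproteins that passed the filter; coloured symbols compare each condition with the proliferating cells of its own run, the black bar is the difference between the proliferating cultures, and the dashed lines mark 1.5-fold. GPX4 had 4 values between -1.54 and -0.68 beside a run difference of 0.00, while for SELS the bar, at -1.02, lay farther from 0 than any condition. The bar is 1 difference per gene and not its spread, and over all genes this difference had an SD of 0.56.

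The genes were also sorted by where the UGA is known to lie, a grouping made after the values were seen and not read from sequence here. A split of these values is therefore no test of the grouping. The 4 genes with an early UGA (GPX1, GPX4, C11orf31, SEPHS2) had senescent TE changes between -2.11 and -1.21. All 4 were past 1.5-fold, where 18.7% of all genes were lower. The 3 with the UGA in the last codons (TXNRD1, TXNRD2, SELS) lay between -0.28 and 0.65. Between the proliferating cultures, run 2 against run 1, the TE changes of the groups overlapped. Their median changes differed, at 0.09 (early) and -0.49 (terminal). The early group lay between -0.52 and 0.65 there and the terminal group between -1.02 and -0.09, all 3 lower in run 2. The 3 with a later but not terminal UGA (SEPX1, SEPN1, EPT1) spread from -1.06 to 0.75. In cells labelled transformed the early group lay between -1.13 and -0.26 and the terminal group between -0.41 and 0.34, and the groups overlapped. They overlapped in quiescence, at -1.22 to -0.32 and -0.51 to -0.15, and in pre-senescence, at -1.17 to -0.19 and -0.86 to -0.37. The Ribo-Seq level sums reads over the whole coding sequence, so the table does not tell footprints before the UGA from those after it.

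**Figure D4:**
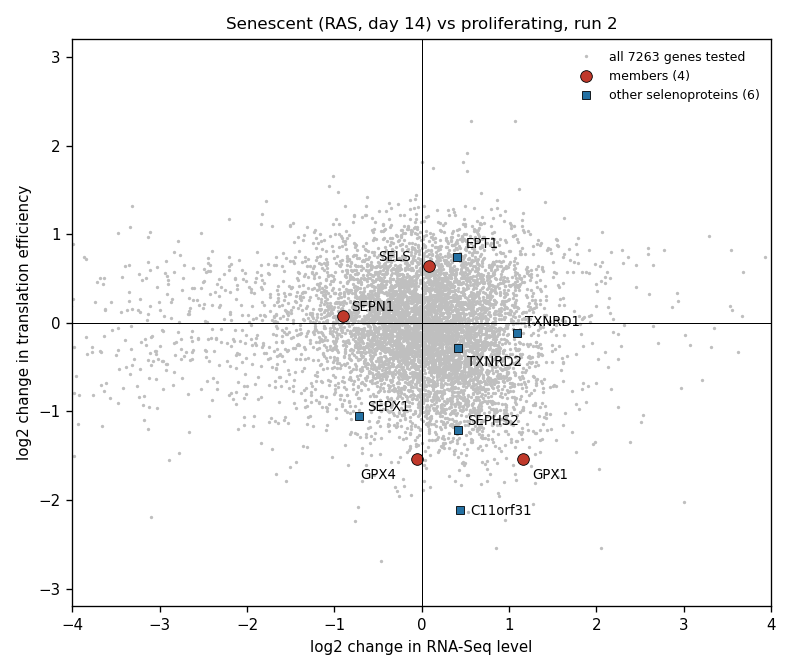
Change in RNA-Seq level (x) against change in translation efficiency (y), both log2, senescent against proliferating cells of run 2; grey points are the 7263 genes tested, of which 86 lie outside the axes, red circles the 4 members and blue squares the 6 other selenoproteins. GPX1 (1.17, -1.54) and TXNRD1 (1.09, -0.11) had like RNA changes and unlike TE changes.

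The machinery that makes and inserts selenocysteine gave 12 rows of 13 listed genes, 10 of which passed the filter. EEFSEC, the selenocysteine elongation factor, was lower in RNA by 1.69 in senescence, from 9.09 to 2.82 FPKM, with a Ribo-Seq level of 8.45 and 2.77 FPKM. SEPHS1, a relative of SEPHS2 that does not make the selenium donor, was lower by 0.93 and XPO1, the nuclear exporter, by 0.81. These were 3 of 10 lower and none higher in RNA in senescence, beside 19.8% of all genes lower. In quiescence NCL was lower by 0.69, 1 of 10, beside 9.25% of all genes lower. No gene of the list passed 1.5-fold in RNA in pre-senescence or in cells labelled transformed, where 11.4% and 21.3% of all genes did. SECISBP2, the SECIS binding protein, did not pass the filter and is given for its role, with RNA at 6.08 to 8.33 FPKM and Ribo-Seq at 2.55 to 4.76 FPKM. In TE, 4 of 10 were lower in quiescence (RPL30 by 1.08, SEPHS2 by 0.97, TRNAU1AP by 0.71, SEPHS1 by 0.63), 3 in pre-senescence and 1 in cells labelled transformed. In senescence 2 were lower (SEPHS2 by 1.21, SCLY by 1.08) and 2 higher (SEPHS1 by 0.69, XPO1 by 0.68). The shares of all genes with lower TE were 12% in quiescence, 22% in pre-senescence, 8.67% in cells labelled transformed and 18.7% in senescence, where 11.8% were higher. RPL30 is a ribosomal protein, a class whose translation the study reports as repressed in quiescence. SEPHS2 was also counted among the other selenoproteins above.

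Relatives that use cysteine in place of selenocysteine gave 14 genes past the filter. In senescence 2 of 14 were lower in TE (TXN by 1.14, PRDX5 by 0.89) and none higher, with a median of -0.25, where 18.7% of all genes were lower and 11.8% higher. TXN, thioredoxin, the substrate of the thioredoxin reductases, had RNA 1.20 higher there, and its proliferating cultures differed in TE by 1.26. GPX8, the ER peroxidase with cysteine in the active site, had TE changes of -0.37 in quiescence, -0.20 in pre-senescence, 0.27 in senescence and 0.44 in cells labelled transformed, none of them past 1.5-fold. In cells labelled transformed GPX8 was lower in both assays, at 44.5 FPKM against 88.4 in the control (RNA-Seq) and 187 against 273 (Ribo-Seq). In senescence its TE change was of the opposite sign to those of GPX1 and GPX4. By sign alone, 5 of the 14 relatives were higher in TE there and 9 lower. In quiescence 1 of 14 was lower (TXN2 by 0.89) and 1 higher (MSRB3, 0.86), in pre-senescence 3 were lower and in cells labelled transformed 2. Lower TE was seen in 12%, 22% and 8.67% of all genes in these conditions, and higher TE in 8.33% in quiescence.

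Partners of the ER selenoproteins gave 8 genes past the filter, and none passed 1.5-fold in RNA in any of the 4 conditions. The shares of all genes that did were 18.5% in quiescence, 11.4% in pre-senescence, 39.6% in senescence and 21.3% in cells labelled transformed. In senescence 6 of 8 were higher in TE, beside 11.8% of all genes: UGGT2 by 1.04, DERL1 by 0.84, ATP2A2 by 0.81, UGGT1 by 0.76, SYVN1 by 0.67 and SEL1L by 0.60. These are the glucosyltransferases of glycoprotein quality control, a Derlin, the calcium pump SERCA2 and the HRD1 ubiquitin ligase with its adaptor. The median of the 8 was 0.72. In quiescence 1 was higher (SYVN1 by 0.83), in pre-senescence 2 (UGGT2 by 0.74, SYVN1 by 0.63), and in cells labelled transformed none. Higher TE was seen in 8.33%, 11% and 3.22% of all genes in these conditions. Between the proliferating cultures UGGT2 and SYVN1 also passed 1.5-fold, higher in run 2 by 0.72 and 0.59. There 23% of all genes passed in either direction.

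Nonsense-mediated decay, which can degrade selenoprotein mRNAs whose UGA is read as a stop, was covered by all 8 listed factors. In RNA, 1 of 8 was lower in quiescence (UPF3B by 0.61, beside 9.25% of all genes) and 1 in senescence (SMG6 by 0.63, beside 19.8%). In TE, 3 of 8 were higher in pre-senescence (SMG5, UPF2 and SMG1, beside 11% of all genes) and none past 1.5-fold in the other conditions. There the shares of all genes past it were 20.3% in quiescence, 30.5% in senescence and 11.9% in cells labelled transformed. Of the receptors that take up selenoprotein P, LRP8 and LRP1 had rows. Their RNA was higher by 0.66 and 0.68 in quiescence, whereas in senescence LRP8 was lower by 0.97 and LRP1 at 0.017. LRP8 was higher by 0.81 and LRP1 lower by 0.96 in cells labelled transformed. In RNA the proliferating cultures differed by -0.73 for LRP8 and 0.61 for LRP1, a size close to that of the quiescent changes. The TE of LRP8 and LRP1 was higher by 0.54 and 1.25 in quiescence, 0.81 and 1.56 in pre-senescence, and 0.75 and 0.50 in senescence. In cells labelled transformed the TE changes were 0.27 and -0.09, and between the proliferating cultures -0.27 and 0.78.

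The genes with the pattern most like that of GPX1 over the 12 columns, by the distance between log2 levels centred within each assay, were DRAP1 (a distance of 0.62), MRPL21 (0.65) and GTF3C6 (0.66). DRAP1 RNA was 238 FPKM in proliferating cells of run 2 and 417 in senescent cells, and its TE 1.12 and 0.06. In quiescence DRAP1 had its lowest levels in both assays, 212 and 366 FPKM, as GPX1 did. As DRAP1 was picked for its likeness to GPX1 over these same columns, these shared features are no separate result.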

How the data were processed

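RNA-Seq and Ribo-Seq libraries of BJ fibroblasts were sequenced on the HiSeq platform. Per the study's methods, the authors aligned reads with Bowtie (version not given in the sources used here, and the submitters' processing notes name hg19) to a set of Ensembl transcripts, that with the longest coding sequence for each gene, kept unique reads and deposited FPKM values. RNA-Seq reads were counted over the transcript and Ribo-Seq reads over the coding sequence, and FPKM values below 1 were raised to 1, which understates changes of low genes. RNA-Seq was paired-end in run 1 and single-end in run 2. The runs come from the study's methods. How 2 libraries were combined into a column was not given.

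Groups followed the sample titles. The check of another knocked-down gene is not reported here. From the FPKM values, log2 changes against the proliferating cells of the same run and TE were computed with no pseudocount, in Python 3.11.15 with pandas 2.3.3 and numpy 2.4.6. Genes with a mean of at least 5 FPKM in each assay were compared. With 1 column a group, no test was run, and calls are changes of at least 1.5-fold. The scripts were tested on simulated data. Named genes were all members, genes of fixed lists past 1.5-fold and the 3 nearest to GPX1 in pattern. Members and lists were chosen with earlier results of these data known. Alternatives were 1 FPKM added, no filter, centring on the median of all genes, a 2-fold call, a limit scaled to the SD of genes of like level (20 bins), the other run's control and the exchange of the Ribo-Seq libraries S and C3.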

Additional observations from a re-analysis of the deposited data

Results flagged for a closer look

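The changes of SEPN1 in senescent cells and in cells labelled transformed, each against proliferating cells of run 2, had opposite signs, with 1 value of each pair near 0. Its RNA change was -0.90 in senescent cells and 0.13 in cells labelled transformed, and its TE change 0.077 and -0.57. Of these 4 values the senescent RNA change alone passed 1.5-fold. There was 1 value per state, and the difference was not tested. Between the proliferating cultures SEPN1 differed by 0.01 in RNA and 0.17 in TE.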

How the results depend on the processing

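The counts of members past 1.5-fold were the same with 1 FPKM added and with no filter on low values, in all 10 results of RNA and TE. Centring on the median of all genes gave 1 member in RNA and 2 in TE for pre-senescence, where 11.4% and 30.8% of all genes passed. A 2-fold call left 0 in RNA in quiescence, 1 in senescence and 0 in cells labelled transformed, and 0 in TE in the last. A limit scaled to the SD of genes of like level left 0 in RNA in these 3 comparisons, 1 in TE in cells labelled transformed and 0 in TE between the proliferating cultures. With the other run's control, RNA gave 0 in quiescence, 1 in pre-senescence and 0 in cells labelled transformed. The shares of all genes past the limit were 21.1%, 29.9% and 23.4%. TE gave 2 in quiescence and 2 in pre-senescence with that control, beside 27.3% and 35.8% of all genes. The senescent TE change of SELS then turned to -0.38. With the Ribo-Seq libraries S and C3 exchanged, TE gave 1 in cells labelled transformed and 2 between the proliferating cultures. The shares of all genes past the limit were then 48.9% and 53.5%. The TE change in senescence turned to 1.65 for GPX4 and -0.80 for SELS, and that of GPX4 in cells labelled transformed to 0.91. The senescent TE count, 3 of 4, was 2 under the 2-fold call, under the limit scaled to the SD and with the other run's control. In these settings 8.59%, 7.1% and 40.4% of all genes passed. The count was 4 with S and C3 exchanged, where 66.7% of all genes passed. The cause of these shifts was not tested. No paired analysis was possible because the table holds 1 column per condition and assay, which also allowed no replicate to be left out. The table holds no counts, and counting error was not estimated.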
